A study of Mus musculus with 10 samples.

Results

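The genes described here are the multicopy germline gene families of the mouse: protein-coding genes whose symbols begin with Magea, Mageb, Prame, Rhox, Xlr or Oog and whose counts summed to at least 10 over the 10 libraries. The name and type rule found 76 genes, and 63 of them, among 55536 genes in the count table, reached the count. They were 8 of 8 Magea, 5 of 7 Mageb, 5 of 13 Prame, 2 of 4 Oog, 33 of 34 Rhox and 10 of 10 Xlr genes, and 57 of the 63 lay on chromosome X. Rhox4a2, with a summed count of 10, lay just inside the threshold and Pramel5, with 9, just outside it. Rhox3a was listed at 0 in every library, in counts and in TPM (a length-scaled transcript abundance).

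RNA was sequenced from female mouse germ cells at E16.5, the embryonic stage at which oocytes are in meiotic prophase. The animals were Taf4b-deficient (5 libraries) or Taf4b-heterozygous (5 libraries), so both genotypes carried the mutation on at least one allele. Taf4b encodes a germ-cell-enriched subunit of the general transcription factor TFIID. All animals were on a C57BL/6 background, came from parents heterozygous for the mutation and were homozygous for an Oct4-EGFP transgene, and cells were sorted for green fluorescence with dead cells excluded by propidium iodide. Whether each library is a different embryo is not in the labels, and the p-values therefore reflect the spread among these 10 libraries, whatever its source.

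Total counts per library ranged over 16707216 to 23680023 in deficient and 18174863 to 26983565 in heterozygous libraries. Taf4b averaged 74.9 ± 9.86 CPM (counts scaled to a common library size, with sizes adjusted by edgeR's trimmed mean of M-values) in deficient and 174 ± 101 CPM in heterozygous libraries (SD, n = 5 each). The library labelled heterozygous 4 had 65.7 CPM of Taf4b, inside the deficient range of 58.2 to 81.7, so this gene did not separate it from the deficient libraries, and counts over a whole gene do not show which part of it is deleted. Summed germ cell markers were at 4230 to 7650 CPM in deficient and 4800 to 8960 CPM in heterozygous libraries, whereas endogenous Pou5f1 was near 0 (0.642 ± 0.427 and 0.258 ± 0.12 CPM). Summed erythroid markers spanned 107 to 1610 CPM in deficient and 65.8 to 2080 CPM in heterozygous libraries and were highest in deficient 5 (1610), heterozygous 5 (2080) and heterozygous 4 (720). Supporting cell markers (44.4 to 139 against 55.9 to 129 CPM), stromal markers (18.9 to 103 against 18.3 to 69), endothelial markers (14.9 to 77.8 against 18.8 to 99.2) and macrophage markers (45.3 to 151 against 88.7 to 174) overlapped between deficient and heterozygous libraries, and no gene of any marker list was at 0 in all libraries. Of 7 macrophage markers 4 fell in the authors' deposited table, as did the germ cell marker Ddx4, where 3.36% of all genes fell. The supporting cell markers Foxl2 and Fst, the stromal marker Col1a2 and the endothelial marker Cdh5 rose there, where 3.2% of all genes rose. The lists were mixed. By edgeR, 5 of 11 tested supporting cell markers, 2 of 8 stromal and 2 of 7 endothelial markers had lower levels in deficient libraries. Among them was Pecam1, with a log2 fold change (deficient over heterozygous) of -1.16. All 7 macrophage and 6 of 7 tested germ cell markers were lower. The part of these cell types in the results below was not tested. In such bulk samples, fewer cells of a type and less RNA per cell cannot be told apart.

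As background, the Magea and Mageb genes are type I MAGE genes, also called cancer-testis antigens, whose proteins bind E3 ubiquitin ligases and whose expression is normally confined to germ cells and lost under promoter DNA methylation in somatic tissue. The Prame and Oog genes encode leucine-rich repeat proteins of a family that expanded in rodents and is transcribed in germ cells and early embryos. Rhox genes are homeobox transcription factors of the reproductive tract in a single X-linked cluster, and the Xlr genes encode nuclear proteins related to the synaptonemal complex protein SYCP3. Many of these genes lie in clusters of similar copies, so reads from a copy can match another.

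Across the families, the members called lower in the authors' deposited table were 6 Magea, 2 Mageb, 1 Prame, 3 Rhox and 1 Xlr genes, where 3.36% of all genes in it were called lower. Of the 63 members, 48 passed the expression filter, and 36 of these had a negative log2 fold change (deficient over heterozygous). The negative share was 51.1% over all 19244 genes tested and 62.8% over the 769 tested genes of chromosome X. By edgeR, 13 members had an unadjusted p under 0.05, all lower in deficient libraries. At that level 9.13% of all genes tested were lower and 7.45% higher. Among the 13 were 6 Magea genes, most of them similar copies in a cluster, so the members are not independent observations. With edgeR's quasi-likelihood test and Benjamini-Hochberg adjustment over all genes, 0 of 48 members and 0 of 19244 genes (0%) were called at an adjusted p under 0.05, the smallest adjusted p of a member being 0.113. DESeq2 on the same counts called 12 of 52 members with an adjusted p, all lower in deficient libraries, where 2.15% of 20289 genes were called lower and 1.19% higher. Limma voom (quality weights) called 5 of 48 members, all lower, where 1.29% of genes were called lower and 1.36% higher, and limma fitted to log2(TPM + 1) called 0. In the authors' deposited table, 13 of 45 members with an adjusted p fell (600 of 17881 genes, 3.36%) and 0 rose (3.2% of all genes). In 7 members every deficient library lay below every heterozygous library (1.6% of all genes), and in 0 above (1.94%). These 7 were Magea10, Magea6, Magea5, Mageb4, Mageb18, Pramel3 and Rhox3h. Among them Rhox3h met the expression filter only through its heterozygous libraries, so its place in the edgeR and overlap counts carries little weight. The number of members without overlap was also 7 without the library labelled heterozygous 4, and 13 without heterozygous 2. With fewer libraries any gene more easily shows no overlap, and the matching shares over all genes are not given here.

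**Figure D1:**
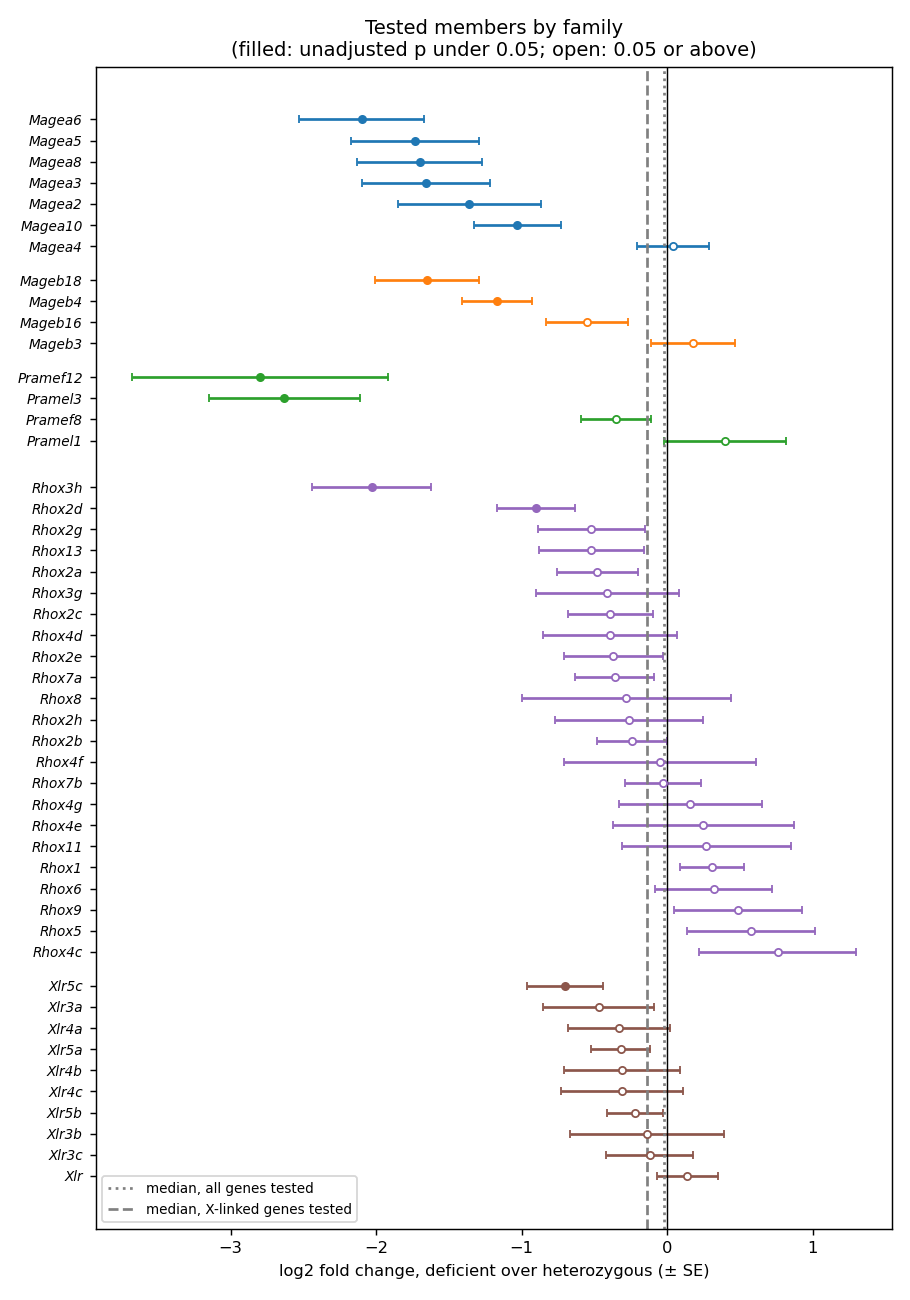
Log2 fold change, deficient over heterozygous, with its SE from edgeR for each of the 48 tested members, by family; filled points have an unadjusted p under 0.05, and the vertical lines mark 0, the median of all genes tested (-0.02) and that of tested X-linked genes (-0.14). The filled points all lie left of 0, 6 of them in Magea.

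Of the Magea genes, all 6 tested members other than Magea4 had lower means in deficient libraries. Median log2 fold change over its 7 tested members was -1.66, against -0.02 for all genes tested and -0.14 for the 769 tested genes of chromosome X, and 6 of the 7 were negative. The family's summed level was 49, 63.8, 38.7, 27.4 and 26.7 CPM in deficient libraries 1 to 5, against 110, 57.5, 90.1, 124 and 131 CPM in heterozygous libraries 1 to 5. Heterozygous 2 and deficient 2 overlapped, and the other heterozygous libraries lay above every deficient one. The means were 41.1 ± 15.6 CPM in deficient and 103 ± 29.8 CPM in heterozygous libraries (SD, n = 5 each), a ratio of 0.401. Family sums were lower in deficient libraries at each of the 3 litter dates of the labels, with log2 ratios of -0.76, -1.06 and -2.26, though no date held more than 2 libraries of a genotype.

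**Figure D2:**
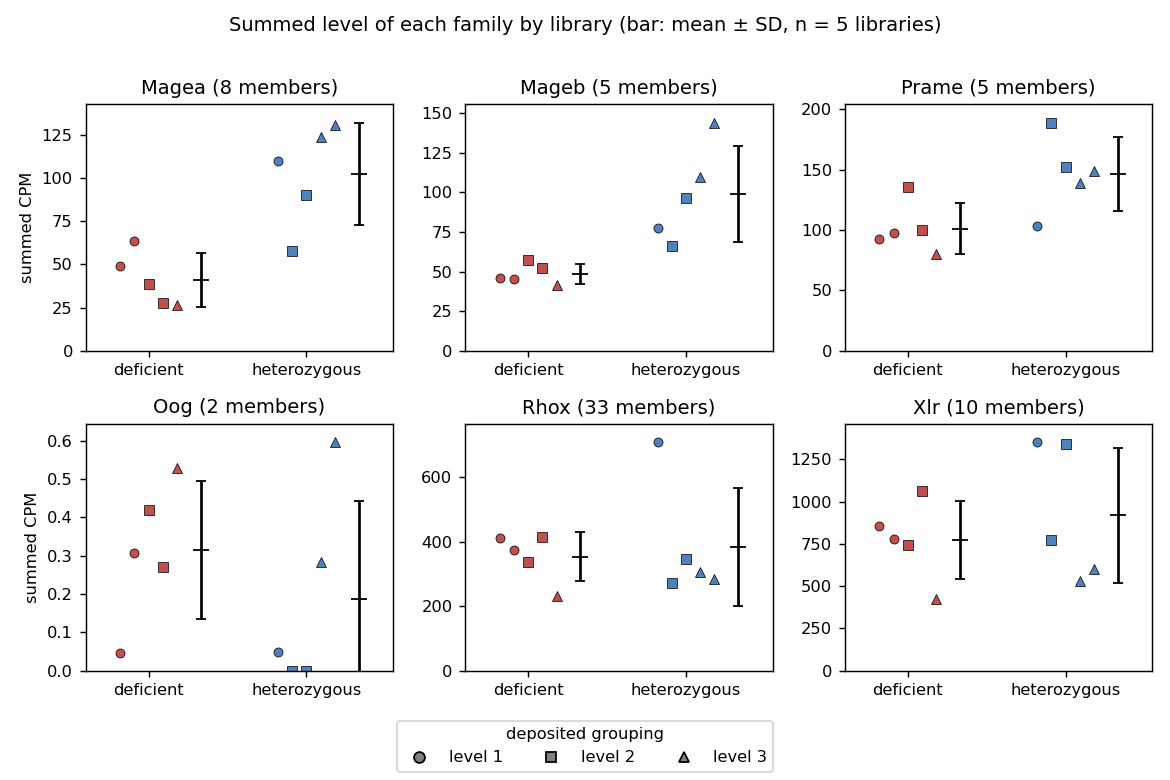
Summed CPM of each family in each library, deficient at left and heterozygous at right, with the mean and SD of the 5 libraries as a bar; the marker shape gives the level of the 3-level grouping that rebuilds the deposited comparison. Magea and Mageb separate the genotypes most, Rhox and Xlr spread most among heterozygous libraries, and Oog stays under 0.6 CPM.

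Within Magea, 6 genes lie as a tandem cluster at chrX:154924012-155093666 (GRCm38, the build of the deposited files), and Magea4 and Magea10 lie elsewhere on the same chromosome. The first 120 bases of coding sequence are shown because they carry the difficulty of counting these genes: they are read 5′ to 3′ from GENCODE M21 transcripts, and capitals mark each base that differs from Magea6 at the same position.
Magea6: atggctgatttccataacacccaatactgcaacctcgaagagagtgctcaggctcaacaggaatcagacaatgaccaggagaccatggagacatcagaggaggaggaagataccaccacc
Magea3: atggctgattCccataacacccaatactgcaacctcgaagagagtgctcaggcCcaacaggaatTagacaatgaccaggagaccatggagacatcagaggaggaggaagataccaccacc
Magea8: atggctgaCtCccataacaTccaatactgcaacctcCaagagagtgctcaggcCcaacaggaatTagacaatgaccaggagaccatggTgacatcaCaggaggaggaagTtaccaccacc
Magea5: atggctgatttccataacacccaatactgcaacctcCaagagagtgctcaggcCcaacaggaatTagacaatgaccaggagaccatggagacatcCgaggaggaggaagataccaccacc
Magea4: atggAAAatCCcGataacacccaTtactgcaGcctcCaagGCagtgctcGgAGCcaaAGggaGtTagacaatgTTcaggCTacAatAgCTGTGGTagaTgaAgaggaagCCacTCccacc
Against Magea6, these 120 bases differed at 3 positions in Magea3, 9 in Magea8, 4 in Magea5 and 38 in Magea4. Over whole coding sequences, identity between the cluster genes ran from 94.9% (Magea6 and Magea5) to 99.3% (Magea2 and Magea1), whereas Magea10 was 62.7% identical to Magea5 and Magea4 was 81.2% identical to Magea6. As a measure of ambiguity, 16% of the 100-base words of Magea6 transcripts also occurred, on either strand, in a transcript of another gene. The share was 22.6% for Magea3, 21.4% for Magea8, 24.6% for Magea5, 44.1% for Magea2 and 0% for both Magea4 and Magea10. With words of 50 bases it was 39% for Magea6, 54% for Magea3, 41.5% for Magea8, 46.2% for Magea5 and 58.3% for Magea2. It was then 2.3% for Magea4 and 0% for Magea10. The annotated span of Magea2 (chrX:155027201-155093666) also holds Magea5 and Magea1 on the same strand. How reads with several matches were counted is not given in the sources used here.

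Magea6 (chrX:154924012-154935987) had 3.25, 5.77, 2.75, 1.62 and 3.91 CPM in deficient libraries 1 to 5, against 7.95, 7.72, 10.1, 23.1 and 25.2 CPM in heterozygous libraries 1 to 5. The groups did not overlap, and heterozygous 4 and 5 stood above the other heterozygous libraries. Its log2 fold change was -2.10 ± 0.43 (SE), with an unadjusted p of 0.000266 and an adjusted p of 0.116 by edgeR. The authors' deposited table gave Magea6 a log2 fold change of -1.89 with an adjusted p of 2.26e-06.

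Magea8 had 8.55, 14.3, 5.31, 2.84 and 4.09 CPM in deficient libraries, against 22.7, 9.58, 18.9, 28.5 and 33.7 CPM in heterozygous libraries, with deficient 2 above heterozygous 2. Magea5 had 6.64, 9.2, 3.82, 1.22 and 3.47 CPM in deficient libraries, against 13.6, 11.2, 10.9, 21.8 and 23.2 CPM in heterozygous libraries, with no overlap. Magea3 averaged 4.62 ± 3.22 CPM in deficient and 14.5 ± 5.19 CPM in heterozygous libraries (SD, n = 5 each). These 3 cluster genes had log2 fold changes of -1.70 ± 0.43, -1.73 ± 0.44 and -1.66 ± 0.44 (SE), each with an adjusted p of 0.145 by edgeR, and each fell in the authors' deposited table (log2 fold changes of -1.9, -1.94 and -1.98). Magea2 averaged 2.04 ± 1.21 CPM in deficient and 5.19 ± 2.38 CPM in heterozygous libraries, and fell in the authors' deposited table with an adjusted p of 0.0184. Magea1, the remaining cluster gene, had a summed count of 25 and was not tested.

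Magea10 (chrX:72381870-72386858) shared no 100-base word, like Magea4, and its values were 11.5, 8.59, 12.4, 11.3 and 5.41 CPM in deficient libraries, against 32.1, 13.1, 22.3, 19.8 and 13.6 CPM in heterozygous libraries. The groups did not overlap, and here heterozygous 1 was the highest library instead of heterozygous 4 and 5. The log2 fold change of Magea10 was -1.03 ± 0.30 (SE; adjusted p = 0.155 by edgeR), and -1.21 in the authors' deposited table (adjusted p = 0.00114). Magea4 (chrX:72222017-72222964), named after its values were seen, had 11, 12.2, 9.07, 7.63 and 6.16 CPM in deficient libraries, against 12.5, 8.27, 7.82, 7.52 and 8.56 CPM in heterozygous libraries. Its groups overlapped, and the log2 fold change was 0.04 ± 0.25 (SE; adjusted p = 0.953 by edgeR). It was the one tested Magea gene not called in the authors' deposited table.

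The genotype difference of Magea did not have the same size in all libraries. A grouping of the libraries into 3 levels rebuilds the authors' deposited fold changes to within 0.00555 over 31181 genes, and the third level of it holds deficient 5, heterozygous 4 and heterozygous 5, the libraries highest for erythroid markers; it is not given in the labels. Summed Magea levels were 56.4 and 110 CPM (deficient and heterozygous means) in the first level, 33.1 and 73.8 CPM in the second and 26.7 and 128 CPM in the third. The log2 ratios were -0.95, -1.15 and -2.24, so the direction was shared and the size differed, with 1 or 2 libraries of a genotype in each level. The part of erythroid cells in this was not tested. With the grouping in the edgeR model, Magea6, Magea3, Magea8 and Magea5 fell (adjusted p = 0.0326, 0.0361, 0.0361 and 0.0361) along with Pramel3 (0.0352), 5 members where 0.171% of all genes were called lower and 0.369% higher. Leaving out heterozygous 4 and 5, a choice made after the data were seen, left a Magea median of -1.29, and leaving out the library labelled heterozygous 4 alone left -1.60.

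**Figure D3:**
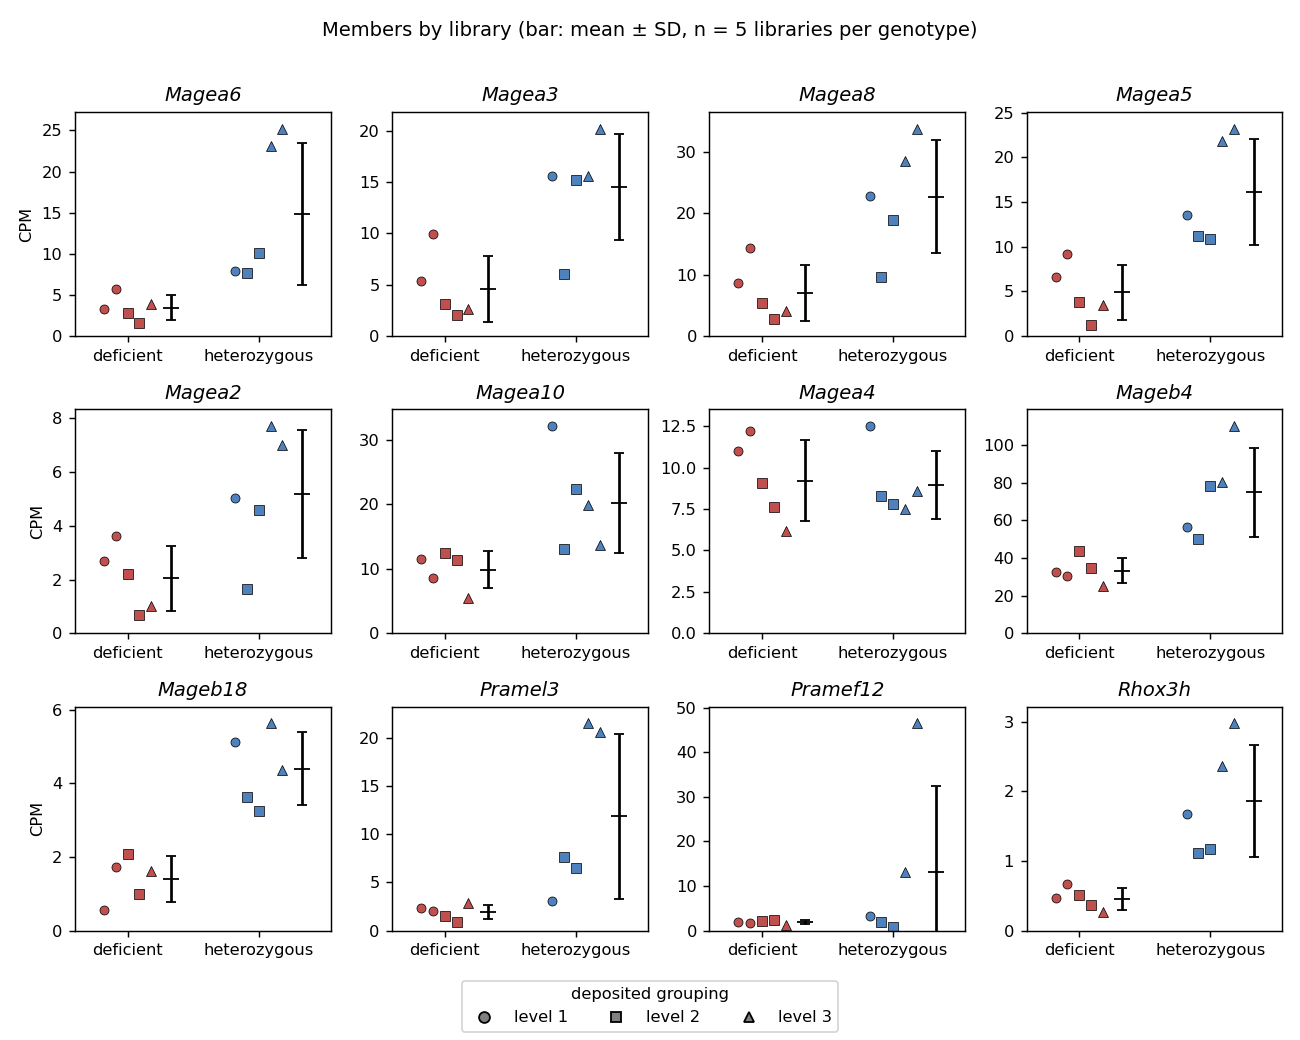
CPM of 12 members in each library, deficient at left and heterozygous at right, with the mean and SD of the 5 libraries as a bar (cut at 0) and the level of the 3-level grouping as marker shape. In Magea6, Magea5, Pramel3 and Pramef12 heterozygous 4 and 5, of the third level, are the highest, while deficient 5 of that level stays at 3.91 CPM for Magea6 and 2.81 CPM for Pramel3; Magea4 overlaps between genotypes.

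Among the Mageb genes, Mageb4 and Mageb18 were separated by genotype. The family's summed level was 45.7, 45.4, 57.5, 52.5 and 41.8 CPM in deficient libraries, against 77.2, 66.3, 96.7, 110 and 144 CPM in heterozygous libraries, with no overlap. Its median log2 fold change over 4 tested members was -0.86, and 73.3% of its counts came from Mageb4. Within the 3 litter dates the log2 ratios of the sums were -0.65, -1.0 and -1.60. Without heterozygous 4 and 5 the median was -0.46.

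Mageb4 (chrX:86250254-86305093) had 32.3, 30.5, 43.7, 34.9 and 25 CPM in deficient libraries, against 56.3, 50, 78.3, 80.2 and 110 CPM in heterozygous libraries. Its log2 fold change was -1.17 ± 0.24 (SE; unadjusted p = 0.000231, adjusted p = 0.113 by edgeR), and it fell in the authors' deposited table (adjusted p = 0.00119). A pseudogene annotated as Mageb10-ps shared 40.5% of its 100-base words.

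Mageb18 (chrX:92118879-92599572), none of whose 100-base words occurred elsewhere, had 0.557, 1.72, 2.09, 0.993 and 1.63 CPM in deficient libraries, against 5.13, 3.63, 3.24, 5.63 and 4.35 CPM in heterozygous libraries. Heterozygous 4 and 5 did not stand apart for this gene. Mageb18 had a log2 fold change of -1.65 ± 0.36 (SE; adjusted p = 0.116 by edgeR), and the authors' deposited table called it with -1.61 (adjusted p = 0.00142). Mageb16 averaged 12.1 ± 1.87 CPM in deficient and 17.7 ± 7.55 CPM in heterozygous libraries, and Mageb3, the one member of the family on chromosome 2, averaged 1.64 ± 0.366 and 1.44 ± 0.165 CPM (SD, n = 5 each). edgeR and the authors' deposited table called neither, and Mageb2, with a summed count of 66, was not tested.

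The type II MAGE genes, relatives that are mostly in single copies and expressed outside the germ line, gave a smaller median. Of 8 genes, 6 were tested and 4 were negative, with a median log2 fold change of -0.48. edgeR and the authors' deposited table each called 0, and 1 was lower at an unadjusted edgeR p under 0.05, as were 9.13% of all genes. That gene, Maged1, averaged 479 ± 96.5 CPM in deficient and 740 ± 165 CPM in heterozygous libraries. Without heterozygous 4 and 5 the median of the list was 0.04.

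The Prame family was not uniform. Pramef8 supplied 84.6% of its counts, so the summed level of 101 ± 20.7 CPM in deficient and 146 ± 30.7 CPM in heterozygous libraries (SD, n = 5 each) mostly follows that gene. Within the 3 litter dates the log2 ratios of the sums were -0.65, -0.32 and -0.73. The median log2 fold change over 4 tested members was -1.49, against -0.91 without heterozygous 5 and -0.30 without heterozygous 4 and 5. Pramef8 had 84.2, 89.2, 125, 89 and 72.6 CPM in deficient libraries, against 88.6, 174, 144, 102 and 78.2 CPM in heterozygous libraries, and the groups overlapped.

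Pramel3 (chrX:135302307-135312652) had 2.37, 2.02, 1.49, 0.858 and 2.81 CPM in deficient libraries, against 3.11, 7.62, 6.44, 21.5 and 20.6 CPM in heterozygous libraries. The groups did not overlap, and the gap was narrow between deficient 5 and heterozygous 1. Its log2 fold change of -2.63 ± 0.52 (SE) had the smallest p of any member (0.000205; adjusted p = 0.113 by edgeR), and it fell in the authors' deposited table (-2.17, adjusted p = 1.13e-06). Without heterozygous 4 and 5 the log2 fold change was -1.58. Other genes shared 62.1% of its 100-base words, 52.4% with the annotated gene Gm15023.

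Pramef12, a gene needed for spermatogenesis in mice, had 2, 1.72, 2.19, 2.26 and 1.19 CPM in deficient libraries, against 3.26, 1.91, 0.692, 13.2 and 46.5 CPM in heterozygous libraries. Heterozygous 5 and heterozygous 4 set the difference. The log2 fold change of -2.80 ± 0.88 (SE; adjusted p = 0.174 by edgeR) became -0.05 without those libraries, and the authors' deposited table did not call it (adjusted p = 0.642). Pramel1 averaged 5.25 ± 1.89 CPM in deficient and 3.99 ± 2.5 CPM in heterozygous libraries. Prame itself had a summed count of 17.

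Oog1 and Oog2, the oogenesins, which rise in growing oocytes after birth, had counts near 0. Oog1 had 0.0465, 0.307, 0.326, 0.0903 and 0.44 CPM in deficient libraries, against 0, 0, 0, 0.237 and 0.55 CPM in heterozygous libraries. Oog2 had a summed count of 11. Neither passed the filter, and counts of this size give no comparison. Other genes shared 78% of the 100-base words of Oog1, 77.3% with the annotated gene Gm2042, and 16.1% of those of Oog2. The part of shared sequence in these low counts was not tested.

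The Rhox cluster (chrX:37213804-38129967) held 33 members, of which 23 were tested. Their median log2 fold change was -0.26 and 15 were negative, but without heterozygous 1 the median over the same genes was 0.06 and 11 were negative. The summed level was 411, 375, 337, 415 and 230 CPM in deficient libraries, against 708, 272, 347, 307 and 284 CPM in heterozygous libraries. Heterozygous 1 stood above all others, and without it the heterozygous libraries lay within the deficient range. The sums differed in direction between litter dates, with log2 ratios of -0.25, 0.12 and 0.18. Rhox13 made up 22.8%, Rhox7b 11.7%, Rhox7a 11% and Rhox5 10.7% of the family's counts.

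Rhox3h (chrX:37657688-37668764) was the one Rhox gene without overlap, at 0.465, 0.675, 0.512, 0.361 and 0.264 CPM in deficient libraries, against 1.68, 1.12, 1.17, 2.37 and 2.98 CPM in heterozygous libraries. Rhox3h had a log2 fold change of -2.03 ± 0.41 (SE; adjusted p = 0.113 by edgeR), and it fell in the authors' deposited table (-1.94, adjusted p = 0.00218). Of its 247 counts, 10, 11, 11, 8 and 6 were in deficient libraries 1 to 5, against 24 to 65 in each heterozygous library. Rhox3h thus met the expression filter only through its heterozygous libraries, and its separation carries little weight. Other genes held 49.1% of its 100-base words and 69.2% of its 50-base words. Rhox2d averaged 6.53 ± 1.09 CPM in deficient and 12.2 ± 4.02 CPM in heterozygous libraries (SD, n = 5 each), with a log2 fold change of -0.90 ± 0.27 (SE; adjusted p = 0.162 by edgeR), and fell in the authors' deposited table (adjusted p = 0.018).

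Rhox13, known from mice as a retinoic acid-regulated germ cell homeobox gene, had 83.2, 90.7, 83.7, 53.3 and 33.9 CPM in deficient libraries, against 209, 81.9, 74.5, 73.4 and 55.6 CPM in heterozygous libraries. One library, heterozygous 1, lay apart, and the log2 fold change of -0.52 ± 0.36 (SE; adjusted p = 0.484 by edgeR) was -0.05 without it. The authors' deposited table called Rhox13 lower (-0.74, adjusted p = 0.0322). Rhox5, the founding member of the family and best known from Sertoli cells and embryonic tissue, had 68.3, 33.9, 38.6, 68.6 and 26.3 CPM in deficient libraries, against 77.3, 13.3, 20.7, 22.5 and 23.8 CPM in heterozygous libraries. Its log2 fold change was 0.58 ± 0.44 (SE; adjusted p = 0.522 by edgeR), and 1.24 (adjusted p = 0.0547) without heterozygous 1.

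Rhox9, a homeobox gene of fetal germ cells named here after its values were seen, showed the same library pattern. It had 47.9, 38, 28.9, 49.3 and 23.7 CPM in deficient libraries, against 70.7, 16.4, 15.9, 17.6 and 12.9 CPM in heterozygous libraries. Without heterozygous 1, edgeR called Rhox9 higher in deficient libraries (log2 fold change 1.26, adjusted p = 0.035), beside 5 members called lower (Magea6, Mageb4, Mageb18, Pramel3 and Rhox3h). In that fit 1.65% of all genes were called lower and 1.42% higher. Rhox7a and Rhox7b had means of 35.3 ± 8.2 and 42.7 ± 6.63 CPM in deficient libraries, against 45.4 ± 17.7 and 43.7 ± 18.4 CPM in heterozygous libraries. The 10 untested Rhox genes had summed counts of 10 to 126.

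**Figure D4:**
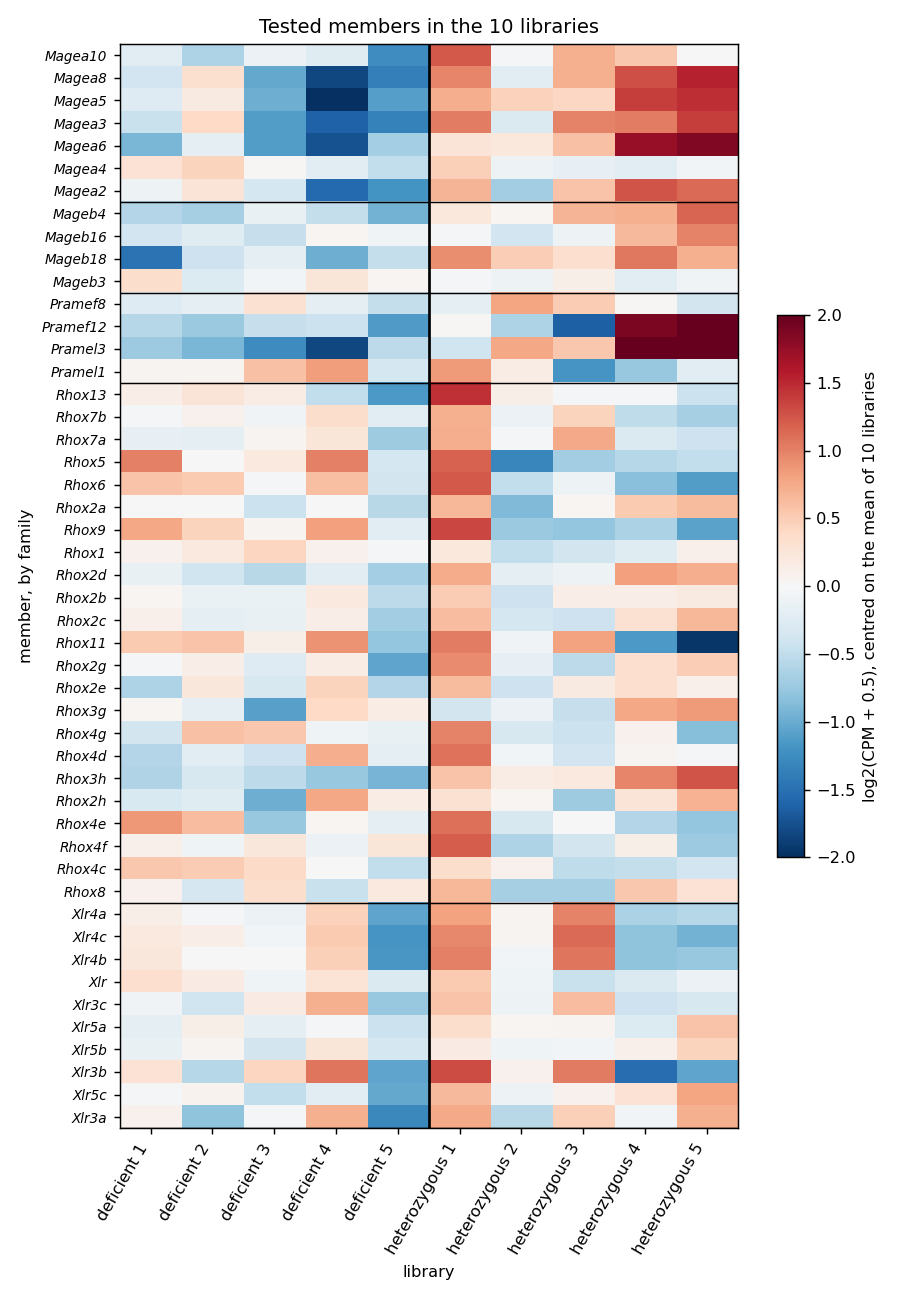
Log2(CPM + 0.5) of the 48 tested members, centred on each gene's mean over the 10 libraries, with families in blocks, deficient libraries at left and heterozygous libraries at right. Magea genes other than Magea4 are low in most deficient libraries, many Rhox genes are high in heterozygous 1, and Xlr3 and Xlr4 genes are high in heterozygous 1 and 3 and low in deficient 5.

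The Xlr genes were the most abundant of the families and varied more between libraries than between genotypes. Their summed level was 858, 781, 742, 1060 and 421 CPM in deficient libraries, against 1350, 772, 1340, 528 and 599 CPM in heterozygous libraries. Heterozygous 1 and 3 were high, and deficient 5, heterozygous 4 and heterozygous 5, the libraries highest for erythroid markers, were low; the part of erythroid cells was not tested. Median log2 fold change over 10 members was -0.31 and 9 were negative, but limma voom with quality weights gave a median of 0.07. The median was -0.13 without heterozygous 1, -0.07 without heterozygous 3 and -0.15 without deficient 5, with 7 of 10 negative in each case. Within the litter dates the log2 ratios of the sums were -0.30, -0.30 and 0.31.

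Xlr4a, the member with the most counts, had 250, 227, 213, 320 and 111 CPM in deficient libraries, against 405, 240, 460, 149 and 155 CPM in heterozygous libraries, and the groups overlapped. Xlr4b and Xlr4c followed it, with means of 116 ± 40.6 and 155 ± 55.7 CPM in deficient libraries, against 144 ± 87.9 and 191 ± 119 CPM in heterozygous libraries. Xlr, the founding gene, averaged 115 ± 19.7 CPM in deficient and 104 ± 29.6 CPM in heterozygous libraries (SD, n = 5 each). None of these 4 was called by edgeR (adjusted p between 0.661 and 0.767) or in the authors' deposited table.

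Xlr5c had the most negative log2 fold change of the family and averaged 12.7 ± 3.6 CPM in deficient and 20.6 ± 5.5 CPM in heterozygous libraries (SD, n = 5 each). Heterozygous 2, at 14.6 CPM, lay inside the deficient range. The log2 fold change of Xlr5c was -0.70 ± 0.26 (SE; adjusted p = 0.218 by edgeR), and it fell in the authors' deposited table (-0.8, adjusted p = 0.024). Its near-copies Xlr5a (-0.32 ± 0.20) and Xlr5b (-0.22 ± 0.19) were not called, and 66.7% of the 100-base words of Xlr5c were shared, 56.4% with Xlr5b, whose coding sequence was 99.4% identical.

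Genes called in the authors' deposited table included copies with and without shared sequence. Over all 63 members, the share of 100-base words found in another gene had a median of 38% and ran from 0% (several genes) to 100% (Rhox3a2). Among the 13 called members the median was 22.6% and the range 0% to 66.7%, against a median of 31.9% over the 48 tested. Magea10, Mageb18 and Rhox13 were called and shared no word of 100 or 50 bases. Shorter words were shared more in other called members, such as Rhox2d with 44.7% of 50-base against 18.1% of 100-base words.

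The deposited TPM values placed these genes on another scale from the counts, in a way that followed gene length. For each gene the mean deposited TPM was divided by a TPM computed from the counts and merged exon length. Over 2427 genes with under 1000 bases of exon and a summed count of at least 100, the median ratio was 0.0468, against 0.437 over 15897 genes of 1400 bases or more. Between 1000 and 1049 bases it was 4.67.

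Members followed their length: 15 under 1000 bases had ratios of 0.0464 to 0.0565, and 35 longer ones 0.401 to 10.2. Rhox6, with 1010 bases of exon, was deposited at a mean of 1010 TPM where its counts gave 99.6. Rhox13, with 876 bases, was deposited at 13.1 TPM where its counts gave 268. Magea3 and Magea6 had similar levels from counts (28.3 and 22), but 1.49 and 17.2 in deposited TPM. The difference between genotypes was hardly touched: over the 48 tested members, the log2 ratio of mean TPM differed from that of mean CPM by -0.12 to -0.04. Deposited TPM moved with the counts within a library. In heterozygous 1, Rhox3a2 and Rhox3f, both of 1008 bases, had 3 and 47 counts and 4.45 and 69.8 TPM. TPM and CPM are thus not separate measurements of the genotype difference. Because the TPM scale shifted with gene length, levels between genes are given from counts. On that scale Xlr4a (461 TPM), Rhox13 (268) and Xlr4c (216) stood highest, and in the other families the highest were Pramef8 (71.8), Mageb4 (62) and Magea3 (28.3).

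**Figure D5:**
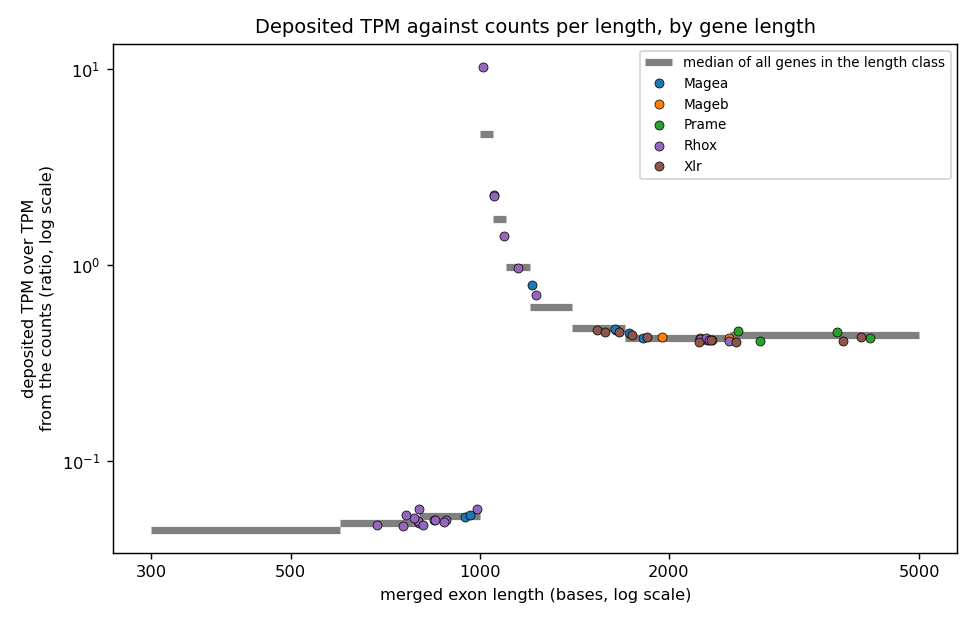
Mean deposited TPM over TPM computed from counts (log scale) against merged exon length (log scale) for the 50 members with a summed count of at least 100, with the median of all genes in each length class as grey bars. Most members lie near the grey bars, with Rhox6 (10.2 at 1010 bases) above its class; the bars step from 0.0523 below 1000 bases to 4.67 just above it and settle near 0.44.

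Promoter sequences are shown for Magea8, Magea2 and Magea10, the Magea genes whose promoters hold the motif CCATNTT. RefSeq promoters on GRCm38.p6, from 250 bases before to 50 after the annotated start, were found for 53 of the 63 members. The windows from 170 bases before to 30 bases after the start are printed 5′ to 3′ on the gene's strand, with capitals for matches to CCATNTT on either strand, a motif chosen after the sequences were seen.
Magea8: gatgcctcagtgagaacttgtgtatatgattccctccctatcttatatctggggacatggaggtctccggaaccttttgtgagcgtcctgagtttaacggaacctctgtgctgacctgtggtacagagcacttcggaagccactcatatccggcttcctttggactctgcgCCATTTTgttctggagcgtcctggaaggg
Magea2: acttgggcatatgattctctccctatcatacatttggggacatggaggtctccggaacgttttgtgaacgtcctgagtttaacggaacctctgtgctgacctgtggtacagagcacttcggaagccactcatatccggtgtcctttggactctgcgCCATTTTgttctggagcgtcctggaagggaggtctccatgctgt
Magea10: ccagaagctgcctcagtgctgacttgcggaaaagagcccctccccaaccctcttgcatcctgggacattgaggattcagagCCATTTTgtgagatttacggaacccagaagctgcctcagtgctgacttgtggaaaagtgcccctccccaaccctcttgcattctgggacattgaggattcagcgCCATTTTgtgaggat
The windows lie on the minus strand at chrX:154995821-154996020, chrX:155033263-155033462 and chrX:72386829-72387028. Over the full 300 bases the Magea8 and Magea2 promoters were 83.9% identical and held 10 and 9 CpG, whereas Magea10 and Magea8 were 60.7% identical. The motif CCATNTT occurred in 3 of 8 Magea promoters, 15 of 53 member promoters (28.3%) and 5281 of 32851 promoters in the table (16.1%). Magea6, Magea3 and Magea5, which also fell in the authors' deposited table, had 0 matches. Their windows were 51.2% to 55.2% identical to each other, where those of Mageb16 and Mageb4 were 50% identical. The motif was not common to the windows of the Magea genes that fell. CCAAT, on either strand, occurred in 34 member promoters (64.2%) and in 37.4% of all promoters, GGGCGG in 11 (20.8%) and 35.7%, and TATAAA in 3 (5.66%) and 13.6%. A CCAAT and a CCATNTT match overlapped in 1 member promoter. Median CpG number was 1.5 in Magea promoters (1 in Magea6, 0 in Magea3 and Magea5) and 7 both in member promoters and in all promoters. The Magea median and the motif matches hold for these RefSeq windows only. Those of Magea6, Magea5 and Magea2 lay inside the GENCODE gene spans instead of at their starts. A match or its absence there does not describe those starts. The Magea6 window was chrX:154926066-154926365, where the minus-strand gene starts at 154935987. Members with near-identical promoters are not independent, and a match is a description of these letters.

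Germline genes in other multigene families were mostly silent: 5 of 43 were tested, with a median log2 fold change of -0.10 that ranged from -0.28 without heterozygous 2 to 0.18 without heterozygous 3, and 1 rose in the authors' deposited table. That gene, Nlrp4c, averaged 3.81 ± 2.74 CPM in deficient and 1.53 ± 0.437 CPM in heterozygous libraries (adjusted p = 0.0474 in the authors' deposited table, 0.209 by edgeR). Nlrp4f, highest of the list, averaged 3.31 ± 1.71 CPM in deficient and 2.15 ± 1.73 CPM in heterozygous libraries.

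X-linked germ cell genes outside the families had a median of -0.33 over 15 tested, with 11 negative and 0 called by edgeR. By edgeR 4 were lower at an unadjusted p under 0.05, and 3 fell in the authors' deposited table. Of all genes 9.13% were lower at that p and 3.36% fell in that table, and 62.8% of tested genes of chromosome X were negative. Tktl1, a transketolase-like gene, averaged 357 ± 94.2 CPM in deficient and 717 ± 67.9 CPM in heterozygous libraries, with no overlap (adjusted p = 0.116 by edgeR and 2.23e-05 in the authors' deposited table). Nxf2, a messenger RNA export gene, averaged 60.4 ± 8.84 CPM in deficient and 172 ± 98.3 CPM in heterozygous libraries, and the homeobox gene Esx1 0.246 ± 0.291 and 1.34 ± 0.847 CPM; both fell in the authors' deposited table (adjusted p = 0.0114 and 0.0319). Taf7l, the most abundant of the list, averaged 1220 ± 226 CPM in deficient and 1120 ± 326 CPM in heterozygous libraries.

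Germline genes under promoter methylation, mostly autosomal, had a median of -0.36 over 19 tested, 16 of them negative. edgeR called 0, 5 were lower at an unadjusted p under 0.05, and Dpep3, Tex19.2 and Ddx4 fell in the authors' deposited table (adjusted p = 0.00117, 0.0433 and 0.0262). Among all genes 51.1% were negative, 9.13% were lower at that unadjusted edgeR p and 3.36% fell in that table. Dpep3 averaged 28.7 ± 13.8 CPM in deficient and 61.7 ± 36.4 CPM in heterozygous libraries. Dazl, the most abundant, averaged 1700 ± 389 CPM in deficient and 1970 ± 449 CPM in heterozygous libraries.

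Repressors and DNA methylation factors that act on germline promoters had a median of 0.19 over 18 tested (0.05 without deficient 3), with 11 positive and 0 called by edgeR (1 lower and 4 higher at an unadjusted p under 0.05). Trim28, a corepressor, averaged 197 ± 22.3 CPM in deficient and 116 ± 30.3 CPM in heterozygous libraries with no overlap, and rose in the authors' deposited table (adjusted p = 0.01). Kdm1a, a histone demethylase, averaged 108 ± 27.1 CPM in deficient and 54.2 ± 38.2 CPM in heterozygous libraries and rose in that deposited table of the authors (adjusted p = 0.0247). Uhrf1, a factor of maintenance methylation, averaged 108 ± 29.2 CPM in deficient and 212 ± 61.4 CPM in heterozygous libraries and fell there (adjusted p = 0.01, from the authors' deposited table). Setdb1, the most abundant, averaged 505 ± 195 CPM in deficient and 352 ± 212 CPM in heterozygous libraries.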

How the data were processed

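RNA-seq of sorted female germ cells at embryonic day 16.5 was deposited for 10 libraries. The authors deposited whole-number counts per gene and TPM per gene. Per the submitters' processing notes the tools were Trim Galore 0.5.0, HISAT2 2.1.0, StringTie 1.3.3b, Subread 1.6.2 (featureCounts) and DESeq2, on GRCm38. Read length and the strand and multi-mapping settings are unstated: not given in the sources used here. The authors' deposited comparison holds log2 fold changes and their errors, a Wald score, a mean normalized count (a signal) and p-values and adjusted p-values, per the file headers.

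Counts were tested with edgeR 4.0.16 (R 4.3.3; TMM scaling, expression filter, Benjamini-Hochberg adjustment over 19244 genes, threshold 0.05) on genotype, as deficient over heterozygous. DESeq2 1.42.0 and limma 3.58.1 served as alternatives, and the edgeR test was checked on simulated counts. SEs are the fold change over the square root of F. Family values are sums or medians, with no test. GENCODE M21, whose gene coordinates match the files for all 63 members, gave exon lengths, coding sequences and words of 100 and 50 bases. Words present in another gene's transcripts on either strand were counted as shared. Promoters came from RefSeq (GRCm38.p6).

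Members and lists were chosen with earlier results of these data known. Text names members that were called, did not overlap or were among the 4 most abundant of a family; Magea4, Rhox9 and others marked or used for sequence and TPM were added after values were seen. Replicate numbers were not treated as pairs: deviations of same-numbered libraries correlated at 0.191, 0.06, 0.145, -0.313 and 0.636.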

Additional observations from a re-analysis of the deposited data

Results flagged for a closer look

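Among the 25 members named by rule that passed the expression filter, each genotype's 5 libraries were examined for a single library apart from the rest. Of 50 groups in all, 3 stood out, where chance flags about 1 in 20 groups. Pramef12 was at 46.5 CPM in heterozygous 5, with the gap to the next library taking 0.728 of the group's range. Rhox5 was at 77.3 CPM in heterozygous 1 (0.836 of the range), and Rhox13 at 209 CPM in the same library (0.829 of the range). Rhox6 and Rhox9 were highest in that library too, at 76.1 and 70.7 CPM.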

How the results depend on the processing

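Under every alternative run, the Magea median and the log2 fold changes of Magea6, Magea5, Magea3, Magea8, Magea10, Mageb4, Mageb18, Pramel3 and Rhox3h were negative. Calls depended on the test: against 0 genes and 0 members with edgeR, DESeq2 called 679 genes and 12 members, limma voom with quality weights 510 and 5, and the deposited grouping 104 and 5. Leaving out 1 library at a time gave 0 to 606 genes and 0 to 6 members, with 606 and 6 without heterozygous 1. Replicate numbers are not known to pair libraries; with a replicate block edgeR called 1 gene and 0 members, the Prame median was -0.83 and Rhox7b was at 0.06. Members without overlap numbered 7 to 13 when 1 library was left out (13 without heterozygous 2), 15 when the first litter date was left out and 11 when the second was. Fewer libraries make no overlap easier for any gene. Shares over all genes are not given for these sets, so the higher counts do not show a stronger separation. The Magea median was -1.01 on log2(TPM + 1) and -1.10 without the third litter date. The Mageb median was -1.09 without the first date, -0.44 without the 3 libraries high for globin and -0.46 without heterozygous 4 and 5. The Prame median was -0.80 on log2(TPM + 1), -0.95 on log2(TPM + 0.1), -0.60 with the deposited grouping, -0.83 without the third date, -0.20 without the globin-high libraries, -0.30 without heterozygous 4 and 5, and -1.65 to -0.91 with 1 library left out. Pramef12, at -2.80 the most negative log2 fold change of any tested member, turned to 0.08 without the globin-high libraries. Smaller fold changes also turned direction: Pramel1 -0.06 and Xlr -0.003 without the second date, Rhox7b 0.22 with voom, 0.09 with litter date in the model, 0.22 without the first date and -0.17 to 0.19 with 1 library left out. With voom, Xlr4a was at 0.09, Xlr4b at 0.23 and Xlr4c at 0.25. List medians moved to -0.20 (methylation-controlled genes) and 0.33 (repressors and DNA methylation factors) with voom, and to -0.50 for X-linked genes without the first date. The repressor and DNA methylation list was at -0.02 without the second date and at 0.05 to 0.27 with 1 library left out. Type II MAGE genes were at 0.04 without heterozygous 4 and 5. For these changes the cause was not tested. Members with summed counts under about 100, such as Oog1 and Oog2, are limited by their low counts, and the part of shared sequence in these was not tested.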
